A study of Mus musculus with 6 samples.

Results

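Growth cone and CRMP (collapsin response mediator protein) genes were examined in the neocortex of newborn mice in which Tcf4 was deleted. The set held 10 genes, found by symbol among 15703 listed genes: Gap43, Basp1, Marcks, Marcksl1, Crmp1, Dpysl2, Dpysl3, Dpysl4, Dpysl5 and Cd24a. All 10 were listed once, with a mean above 1 FPKM. RNA sequencing covered 3 conditional knockout (cKO) libraries, of genotype Tcf4 f/f; Emx1Cre/+, and 3 wild-type (WT) libraries, all C57BL/6 at postnatal day 0. In the cKO, Cre recombinase is driven by Emx1, a gene of dorsal forebrain progenitors, so excitatory neurons and glia that descend from those progenitors recombine. Interneurons, microglia and vessels of the same tissue arise elsewhere and keep their alleles. The labels do not say whether the WT animals carried floxed alleles or Cre. The stated purpose was to find how expression changes once Tcf4, a transcription factor, is lost. The libraries are called cKO 1 to cKO 3 and WT 1 to WT 3.

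A growth cone is the motile tip of a growing axon, where actin and microtubules are rebuilt beneath a membrane that senses guidance cues. Gap43, Basp1, Marcks and Marcksl1 encode lipid-anchored proteins of the inner membrane face that bind calmodulin or phosphoinositides, and most are substrates of protein kinase C. The CRMPs are cytosolic phosphoproteins that bind tubulin and relay signals such as semaphorin 3A, and kinases including Cdk5, Gsk3b and Rock regulate them. Cd24a encodes a small, heavily glycosylated surface protein that is held by a lipid anchor and is abundant on young neurons. Expression of most of these genes is high while axons grow and declines as the cortex matures.

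Values are FPKM, fragments per kilobase of exon per 1e6 mapped, so levels can be set side by side between genes. Reads in listed genes, recovered from FPKM and approximate, numbered 25.4 to 28.8 M (1e6 reads) per library. In each library they exceed the library size used to recover them (23.2 to 26.1 M), so the approximate reads run high for some genes. Tests are limma on log2(FPKM + 1), with Benjamini-Hochberg adjustment over the 15703 genes, and a gene was called at an adjusted p under 0.05. Tcf4 was at 56.5, 60.6 and 55.3 FPKM in cKO and 71.2, 75.6 and 75.3 FPKM in WT, and it fell (log2 change -0.36, limma adjusted p = 0.004115). The cortical excitatory neuron markers Neurod6 and Tbr1 were present in every library, Neurod6 at 326 to 369.5 FPKM in cKO and 272 to 315 FPKM in WT, and Tbr1 at 37.9 to 40.25 FPKM in cKO and 42.4 to 44.6 FPKM in WT.

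Of the 10 genes, limma called 1 lower in cKO, Gap43, and 0 higher, while 9 did not pass. Across all genes, 8.59% were called lower and 7.22% higher, so a share of 10% called lower is near the background. At an unadjusted p under 0.05, 3 genes had lower values in cKO (Gap43, Basp1 and Crmp1) and 1 had higher values (Cd24a). A voom fit on approximate reads called 1 lower and 0 higher. The log2 change was negative for 6 and positive for 4 of the genes, with a median of -0.07 over the 10, against 0.0017 over all genes. Groups did not overlap in 5 genes, of which Gap43, Basp1, Marcksl1 and Crmp1 lay below WT and Cd24a above it. Among all genes, 37.3% did not overlap, 18.7% lying wholly below WT and 18.5% wholly above.

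The genes are among the most abundant messages of this tissue. By mean level, 9 of the 10 were above 100 FPKM and ranked between 23 (Basp1) and 151 (Dpysl5) of all genes, and Dpysl4 ranked 5090. The 313 genes with a mean of at least 100 FPKM had a median log2 change of -0.14, with 46 called lower (14.7%) and 7 called higher (2.24%). This limit was chosen after values were seen. The small negative changes of Basp1, Marcks, Marcksl1, Crmp1 and Dpysl3 thus stood beside a median of -0.14 for genes as abundant as they are. Under quantile normalization the median of the abundant genes was -0.0042.

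**Figure D1:**
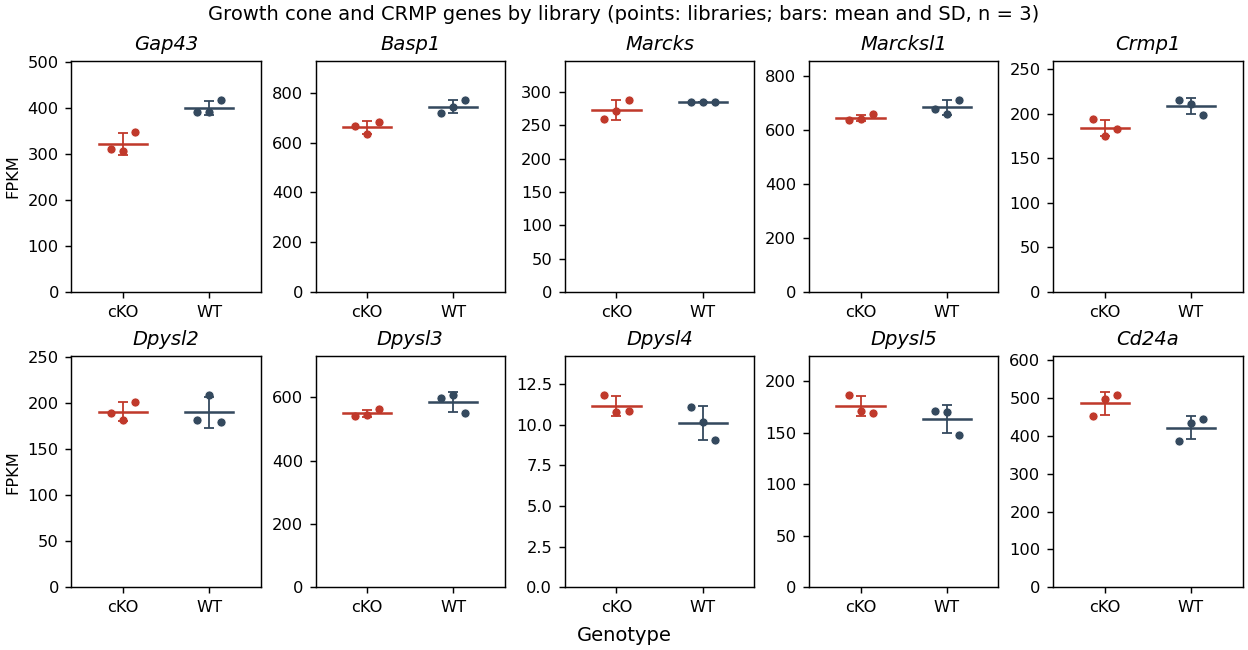
FPKM of each gene (vertical axes, linear and from 0) in the cKO libraries (left, red) and WT libraries (right, dark), with points for libraries and bars for the mean and SD, n = 3 each. Gap43 reached at most 349 FPKM in cKO and was at least 392.1 FPKM in WT, while Dpysl2 and Dpysl3 overlapped between genotypes.

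Gap43 (ENSMUSG00000047261, chromosome 16, 42248442 to 42340651, minus strand, mm10) encodes growth-associated protein 43, a palmitoylated protein kinase C substrate that binds calmodulin and marks growing and regenerating axons. Its level was 312, 306 and 349 FPKM in cKO libraries and 392.6, 392.1 and 419 FPKM in WT libraries. Every cKO library lay below every WT library, and cKO 3 was the nearest to WT. The mean was 322 ± 23.6 FPKM in cKO and 401 ± 15.35 FPKM in WT (SD, n = 3 each), so it fell by 19.7%. The log2 change was -0.32 (SE 0.0688, 95% interval -0.47 to -0.16, limma adjusted p = 0.0128). The call was lost without cKO 2 (limma adjusted p = 0.0696) and under quantile normalization (log2 change -0.17, limma adjusted p = 0.0559), and it held in the other 15 of 17 alternatives. Between 11230 and 15591 approximate reads per library lay behind the value. The lowest gives a counting error of about 0.944%, below the 7.32% coefficient of variation among cKO libraries.

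Beside Gap43, markers of several cell types moved. The 6 general neuron markers (Rbfox3, Tubb3, Dcx, Map2, Snap25, Stmn2) summed to 1519 to 1542 FPKM in cKO and 1636 to 1651 FPKM in WT. Tubb3 made up most of that sum, at 919 to 935 FPKM in cKO and 994 to 1027 FPKM in WT, and was not called. Of the 6, 2 fell, Snap25 and Rbfox3. Dcx and Stmn2 had negative log2 changes and Map2 a positive one (0.18), and none of these passed. The 3 intermediate progenitor markers summed to 22.4 to 32.2 FPKM in cKO and 15.7 to 18.45 FPKM in WT, and 2 of them, Eomes and Neurog2, rose. The 6 interneuron markers summed to 62.4 to 64.1 FPKM in cKO and 71.45 to 74.8 FPKM in WT, and 2 of them, Gad2 and Dlx2, fell. The radial glia markers did not move as a set. Of the 6, Fabp7 fell, at 258 to 345 FPKM in cKO and 450.1 to 459 FPKM in WT, and it made up most of their sum of 317 to 411 FPKM in cKO and 517.5 to 533 FPKM in WT. Pax6 (2.54 to 3.195 FPKM in cKO and 2.20 to 2.30 FPKM in WT) and Hes1 (2.01 to 2.77 FPKM in cKO and 1.63 to 1.87 FPKM in WT) lay above WT without overlap and were not called. Among glia, all 4 listed astrocyte markers fell, with a sum of 17.65 to 21.3 FPKM in cKO and 28.8 to 37.6 FPKM in WT. The 5 oligodendrocyte lineage markers summed to 41.2 to 50.5 FPKM in cKO and 56.5 to 64.3 FPKM in WT, and Pdgfra and Olig1 fell. The 6 microglia markers summed to 9.81 to 15.2 FPKM in cKO and 16.5 to 19.9 FPKM in WT, and C1qa and C1qb fell. Csf1r and Cx3cr1 lay wholly below WT and were not called. Aif1 and P2ry12 overlapped between genotypes, P2ry12 at 1.49 to 2.18 FPKM in cKO and 1.59 to 1.94 FPKM in WT. The excitatory markers did not move as a set. Neurod6 lay wholly above WT and Tbr1 wholly below it, at the levels given above. Neither was called (for Neurod6, log2 change 0.25, limma adjusted p = 0.0507). Of 4 listed striatum markers, 1 fell, Ppp1r1b, at 3.07 to 3.63 FPKM in cKO and 4.79 to 7.40 FPKM in WT. Of 4 Cajal-Retzius markers, 1 fell, Calb2, at 5.10 to 5.81 FPKM in cKO and 7.23 to 8.76 FPKM in WT. None of these markers was at 0 in any library. Beside these counts, 8.59% of all genes were called lower and 7.22% higher. Their part in the result was not tested, and in bulk tissue fewer cells of a type and less RNA per cell cannot be told apart.

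Basp1 (ENSMUSG00000045763, chromosome 15, 25363277 to 25413764, minus strand), a myristoylated protein that gathers at phosphoinositide-rich membrane, was the most abundant of the set in both genotypes. It was at 668, 635 and 685 FPKM in cKO and 719.5, 744 and 774 FPKM in WT. The groups did not overlap, and cKO 2 was the lowest library. The means were 662.5 ± 25.6 FPKM in cKO and 746 ± 27.1 FPKM in WT (SD, n = 3 each), a ratio of 0.888. The log2 change of -0.17 (SE 0.0613, 95% interval -0.31 to -0.03) did not pass (limma adjusted p = 0.0857).

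Marcksl1 (ENSMUSG00000047945, chromosome 4, 129513581 to 129515985, plus strand) and Marcks (ENSMUSG00000069662, chromosome 10, 37133375 to 37138920, minus strand) encode myristoylated, actin-binding substrates of protein kinase C with a shared basic effector domain. Marcksl1 was at 637, 641 and 658 FPKM in cKO and 679, 659.8 and 713 FPKM in WT. These groups did not overlap, though cKO 3 and WT 2 lay close together. Marcks was at 259.5, 271 and 289 FPKM in cKO and 285, 285 and 286 FPKM in WT. Its WT libraries were almost equal and cKO 3 lay above them. Neither passed limma's test, with log2 changes of -0.08 for Marcksl1 (95% interval -0.21 to 0.05, adjusted p = 0.358) and -0.06 for Marcks (95% interval -0.20 to 0.07, adjusted p = 0.496). Both log2 changes turned positive under quantile normalization. One processed pseudogene, Marcksl1-ps4 on chromosome 13, carries the name of Marcksl1 in the annotation and is listed in the table, so reads that match both could be split between them.

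Summed over these 4 membrane genes, expression was 1853 to 1981 FPKM in cKO and 2076 to 2191 FPKM in WT. Gap43 made up 16.5% to 17.6% of the sum in cKO and 18.8% to 19.1% in WT. The share of Marcksl1 was 33.2% to 34.6% in cKO and 31.7% to 32.7% in WT, and that of Basp1 overlapped between genotypes.

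**Figure D2:**
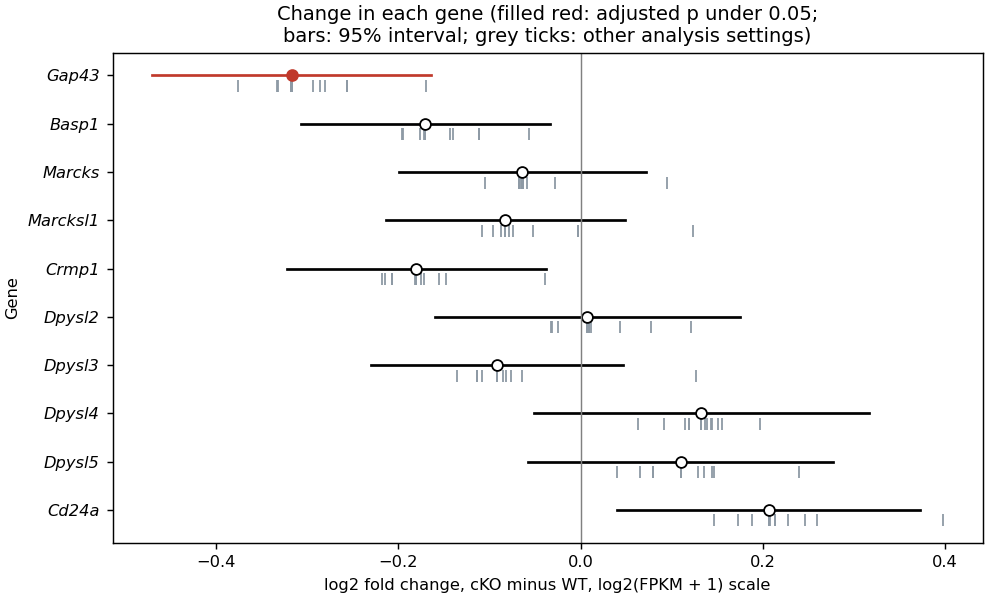
Log2 fold change of each gene, cKO minus WT, on the log2(FPKM + 1) scale (horizontal axis), with its 95% interval as a bar and the values under 17 alternative settings as grey ticks. Gap43, filled, is the gene called, at -0.32; the intervals of Basp1 and Crmp1 lie below 0 and that of Cd24a above it, none of which passed after adjustment over all genes.

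The CRMP family summed to 1083 to 1126 FPKM in cKO and 1086 to 1209 FPKM in WT, so the totals overlapped. Dpysl3 (ENSMUSG00000024501, chromosome 18, 43320984 to 43438286, minus strand), which encodes CRMP4, supplied about as much as its 4 relatives together, 48.2% to 50.2% of the sum in cKO and 50.3% to 50.8% in WT. It was at 541, 544 and 562 FPKM in cKO and 598, 608 and 551 FPKM in WT, and WT 3 lay within the cKO range. Its log2 change was -0.09 (95% interval -0.23 to 0.05, limma adjusted p = 0.334), and this turned positive under quantile normalization.

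Crmp1 (ENSMUSG00000029121, chromosome 5, 37241940 to 37292133, plus strand), a mediator of semaphorin 3A signalling, was at 194, 176 and 183 FPKM in cKO and 216, 211 and 199 FPKM in WT. The groups did not overlap, and cKO 1 and WT 3 were the nearest pair. The means were 184 ± 9.23 FPKM in cKO and 209 ± 8.85 FPKM in WT (SD, n = 3 each), a ratio of 0.882. The log2 change of -0.18 (SE 0.0638, 95% interval -0.32 to -0.04) did not pass (limma adjusted p = 0.082), but it did without WT 3 (limma adjusted p = 0.0488) and with a correction for exon length and GC content (limma adjusted p = 0.01495).

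Dpysl2 (ENSMUSG00000022048, chromosome 14, 66802864 to 66868688, minus strand) encodes CRMP2, which promotes microtubule assembly in the axon. It was at 189, 181 and 201 FPKM in cKO and 181, 209 and 179.5 FPKM in WT, and the groups overlapped throughout. Its log2 change was 0.01 (95% interval -0.16 to 0.17, limma adjusted p = 0.958), the smallest in size of the 10.

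Dpysl5 (ENSMUSG00000029168, chromosome 5, 30711564 to 30799375, plus strand), which encodes CRMP5, the most divergent member of the family, was at 187, 171 and 169.6 FPKM in cKO and 171, 171 and 148 FPKM in WT. WT 3 was the lowest and cKO 1 the highest, and the remaining 4 libraries lay together. Dpysl4 (ENSMUSG00000025478, chromosome 7, 139086001 to 139102704, plus strand), which encodes CRMP3, was far lower, at 11.85, 10.8 and 10.8 FPKM in cKO and 11.1, 10.1 and 9.06 FPKM in WT. Both had positive log2 changes that did not pass limma's test, 0.11 for Dpysl5 (95% interval -0.06 to 0.28, adjusted p = 0.339) and 0.13 for Dpysl4 (95% interval -0.05 to 0.32, adjusted p = 0.295).

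The log2 changes of Crmp1 and Dpysl5, whose levels overlapped in cKO but not in WT, lay on opposite sides of 0. Because library scaling cancels in a ratio of genes within a library, the ratio of Dpysl5 to Crmp1 was taken. It was 0.965, 0.974 and 0.929 in cKO and 0.792, 0.809 and 0.742 in WT, and the groups did not overlap. As a share of the CRMP sum, Dpysl5 was 15.1% to 16.7% in cKO and 13.6% to 14.5% in WT, and Crmp1 was 16.2% to 17.3% in cKO and 17.5% to 18.4% in WT. This pair was chosen after its values were seen, so its ratio is a description with no test. The shares of Dpysl3 (given above) and Dpysl4 (0.961% to 1.05% in cKO and 0.834% to 0.944% in WT) did not overlap between genotypes either. The promoters of Dpysl5 and Crmp1 are shown because this ratio separated the genotypes and both have RefSeq entries. They are RefSeq sequences of build GRCm38.p6 (the same assembly as mm10), plus strand, from 250 bases before to 50 bases after an annotated start, at chr5:30711314-30711613 for Dpysl5, chr5:37241808-37242107 for the first Crmp1 start and chr5:37245514-37245813 for the second. Capitals mark CANNTG, the E-box core that Tcf4 and related factors bind, which reads the same class on both strands.
Dpysl5: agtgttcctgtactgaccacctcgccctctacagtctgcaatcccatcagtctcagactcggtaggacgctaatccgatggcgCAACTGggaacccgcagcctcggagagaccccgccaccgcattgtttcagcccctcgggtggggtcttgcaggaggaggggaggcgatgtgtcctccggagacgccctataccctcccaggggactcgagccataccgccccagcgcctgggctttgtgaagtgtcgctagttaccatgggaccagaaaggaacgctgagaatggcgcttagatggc
Crmp1 first start: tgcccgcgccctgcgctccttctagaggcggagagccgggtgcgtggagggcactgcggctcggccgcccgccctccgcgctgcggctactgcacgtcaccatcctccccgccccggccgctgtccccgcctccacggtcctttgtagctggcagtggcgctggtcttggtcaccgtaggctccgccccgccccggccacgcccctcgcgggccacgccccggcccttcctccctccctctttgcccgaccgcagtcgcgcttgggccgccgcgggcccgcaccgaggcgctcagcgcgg
Crmp1 second start: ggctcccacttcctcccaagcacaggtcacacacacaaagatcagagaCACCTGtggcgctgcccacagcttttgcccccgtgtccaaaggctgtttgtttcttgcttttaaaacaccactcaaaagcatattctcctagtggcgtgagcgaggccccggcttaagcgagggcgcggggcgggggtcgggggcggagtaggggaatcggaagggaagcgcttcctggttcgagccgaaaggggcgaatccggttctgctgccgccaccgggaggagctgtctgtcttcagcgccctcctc

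In these windows, Dpysl5 held 1 CANNTG, the first Crmp1 start 0 and the second Crmp1 start 1, which was of the form CACCTG. Of 32851 promoters of the same 300 bases, 72.3% held at least 1 CANNTG and 20.2% held CACCTG or its complement CAGGTG, so a match was common. The promoter of Marcksl1 (chromosome 4) held 1 CANNTG and that of Basp1 (chromosome 15) held 0. Promoters were shown or searched for 4 of the 10 genes, and Gap43, Marcks, Dpysl2, Dpysl3, Dpysl4 and Cd24a were not among them. A match is a description of the letters and not a bound site, and FPKM counts all exons of a gene, so use of the first and second Crmp1 start was not separated.

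Cd24a (ENSMUSG00000047139, chromosome 10, 43578284 to 43584265, plus strand) had the highest positive log2 change of the 10. It was at 452, 499 and 509 FPKM in cKO and 387, 433 and 445 FPKM in WT. Every cKO library lay above every WT library, although cKO 1 exceeded WT 3 only slightly. The means were 487 ± 30.5 FPKM in cKO and 422 ± 30.6 FPKM in WT (SD, n = 3 each), a ratio of 1.15. The log2 change of 0.21 (SE 0.0746, 95% interval 0.04 to 0.37) did not pass (limma adjusted p = 0.087). It passed under quantile normalization (log2 change 0.40, limma adjusted p = 0.000446) and with the length and GC correction (log2 change 0.21, limma adjusted p = 0.0363). Without single libraries its adjusted p was 0.0595 to 0.276.

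**Figure D3:**
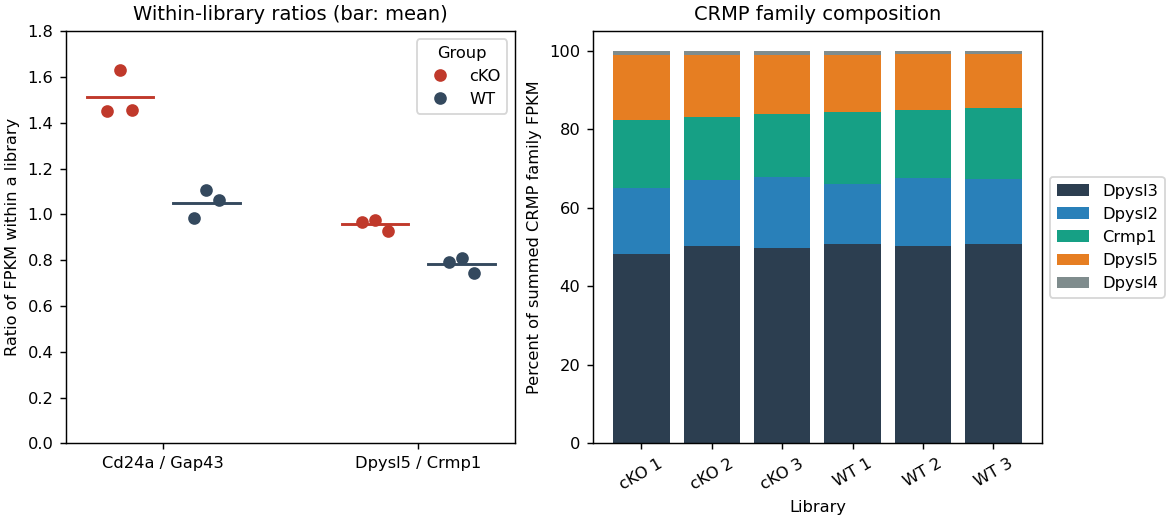
Left, the ratio of FPKM within each library (vertical axis, linear and from 0) for Cd24a over Gap43 and Dpysl5 over Crmp1, in cKO (red) and WT (dark), with bars for the means. Right, the percentage of the summed CRMP family FPKM from each gene in each library; Cd24a over Gap43 was at least 1.45 in cKO and at most 1.105 in WT, and Dpysl3 gave 48.2% to 50.8% throughout.

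The order of the levels differed in a few places. In WT, the ranges of Cd24a (387 to 445 FPKM) and Gap43 (392.1 to 419 FPKM) overlapped, and in cKO they did not. The ratio of Cd24a to Gap43 was 1.45, 1.63 and 1.46 in cKO and 0.986, 1.105 and 1.06 in WT. This pair holds the most negative and the most positive log2 change of the 10 and was chosen for that, so the separation of its ratio is a description with no test. Basp1 and Marcksl1 overlapped in cKO and were separate in WT. Crmp1 and Dpysl2 overlapped in both genotypes, and Dpysl5 overlapped Crmp1 in cKO but lay below both in WT. In both genotypes Dpysl3 stood between Marcksl1 and Cd24a, Marcks stood just below Gap43 and Dpysl4 stood last, each apart from its neighbours.

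A Cdk5 activator, Cdk5r2, and the semaphorin receptors Nrp1 and Plxna2 fell, while Cdk5r1, Plxna1, Plxna3 and Plxna4 did not pass. Of 23 kinases, receptors and binding partners of the CRMPs, 4 fell, 3 rose and 16 did not pass (8.59% lower and 7.22% higher over all genes), with a median log2 change of -0.01 against 0.0017 over all genes. Cdk5r2, a neuronal activator of the CRMP kinase Cdk5, was at 9.47, 8.76 and 11.1 FPKM in cKO and 29.45, 27.9 and 25.2 FPKM in WT (log2 change -1.41, limma adjusted p = 1.15e-05). The semaphorin 3A receptor Nrp1 fell to 11.05 ± 1.27 FPKM in cKO, against 17.35 ± 1.44 FPKM in WT (limma adjusted p = 0.00189), and its plexin partner Plxna2 to 25.4 ± 0.942 FPKM in cKO, against 33.3 ± 1.44 FPKM in WT (limma adjusted p = 0.00365). Dyrk2, a priming kinase for CRMPs, was also lower (20.3 ± 0.554 FPKM in cKO and 26.1 ± 1.48 FPKM in WT, limma adjusted p = 0.00641). Those that rose were Rock1, a CRMP kinase (limma adjusted p = 0.0396), Mical3 (0.0471) and the ligand gene Sema3a (0.021). The number that rose was 0 without cKO 3 or WT 1 and 1 without cKO 1 or cKO 2, under plain moderation or with sex as a term. Cdk5 itself was at 28.1 ± 1.01 FPKM in cKO and 27.8 ± 1.1 FPKM in WT (limma adjusted p = 0.901). The activator Cdk5r1 was at 151.7 ± 3.75 FPKM in cKO and 147.7 ± 4.045 FPKM in WT (limma adjusted p = 0.681). Plxna1 and Plxna3 had positive log2 changes (0.14 and 0.25, limma adjusted p = 0.497 and 0.0895), and Plxna4 had a negative one (-0.23, limma adjusted p = 0.0667).

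Of 27 genes for protein kinase C, calmodulin, phosphoinositide and lipid-anchoring enzymes and regulators of Gap43 RNA, 6 fell, 4 rose and 17 did not pass (median log2 change 0.0098), against 8.59% lower and 7.22% higher over all genes. Among those that fell, the protein kinase C isoform Prkcd was at 3.37 ± 0.0461 FPKM in cKO and 5.55 ± 0.338 FPKM in WT (limma adjusted p = 0.000984). Ppp3ca, a catalytic subunit of calcineurin, which dephosphorylates Gap43, was at 30.3 ± 0.670 FPKM in cKO and 43.3 ± 0.208 FPKM in WT (limma adjusted p = 0.000385). Another catalytic subunit, Ppp3cb, was at 60.4 ± 2.95 FPKM in cKO and 64.8 ± 1.76 FPKM in WT and did not pass (limma adjusted p = 0.280). Elavl4, an RNA-binding protein known to stabilise Gap43 messenger RNA, rose to 39.9, 44.0 and 45.3 FPKM in cKO, against 28.2, 32.4 and 26.7 FPKM in WT (log2 change 0.55, limma adjusted p = 0.0019). Gap43 RNA and Elavl4 RNA thus changed in opposite directions. Called protein kinase C isoforms went both ways, as Prkca rose to 11.7 ± 0.459 FPKM in cKO, against 8.80 ± 0.558 FPKM in WT (limma adjusted p = 0.00646). The number of the 27 that rose was 2 without cKO 2, cKO 3 or WT 1, and the number that fell was 3 under quantile normalization.

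Other growth cone proteins were mostly below the threshold. Of 30, limma called 2 lower (Capzb, an actin-capping subunit, and Pfn1, an actin-monomer binder) and 1 higher (Stmn4, a stathmin that binds tubulin), and 27 did not pass, with a median log2 change of -0.09. These counts are no larger than the 8.59% lower and 7.22% higher over all genes would give. Stmn4 was at 220.0 ± 10.2 FPKM in cKO and 185 ± 9.17 FPKM in WT (limma adjusted p = 0.027), Capzb at 37.1 ± 0.845 FPKM in cKO and 44.7 ± 1.66 FPKM in WT (limma adjusted p = 0.0155), and Pfn1 at 40.75 ± 2.62 FPKM in cKO and 47.5 ± 1.56 FPKM in WT (limma adjusted p = 0.0491). These calls were lost without 4, 3 and 5 of the 6 libraries, with adjusted p of up to 0.088 for Stmn4 (without cKO 3), 0.0582 for Capzb (without WT 1) and 0.159 for Pfn1 (without cKO 2). With sex of the animal as a term (cKO 3 and WT 1 expressed Y-linked genes), Stmn4 (adjusted p = 0.0505) and Pfn1 (adjusted p = 0.0802) also missed the threshold, and Pfn1 missed it under quantile normalization (adjusted p = 0.07) and the length and GC correction (adjusted p = 0.0898).

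Among surface partners of Cd24 and the L1 family, 4 of 6 fell and 0 rose by limma, by voom or at an unadjusted p under 0.05. By limma, 8.59% were called lower and 7.22% higher over all genes. The median log2 change of the 6 was -0.41, against 0.0017 over all genes. Cntn2, an axonal adhesion molecule reported to bind Cd24, was at 17.6, 17.1 and 16.1 FPKM in cKO and 100.1, 102.8 and 100.1 FPKM in WT (log2 change -2.51, limma adjusted p = 9.54e-09). Cntn1 fell to 11.9 ± 0.872 FPKM in cKO, against 20.1 ± 0.771 FPKM in WT (limma adjusted p = 0.000184). In the L1 family, Nrcam was at 35.1 ± 0.556 FPKM in cKO and 49.1 ± 5.001 FPKM in WT (limma adjusted p = 0.00337), and Nfasc was at 17.6 ± 0.867 FPKM in cKO and 22.7 ± 1.46 FPKM in WT (limma adjusted p = 0.0099). L1cam was at 71.9 ± 5.37 FPKM in cKO and 71.3 ± 9.05 FPKM in WT (limma adjusted p = 0.917).

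**Figure D4:**
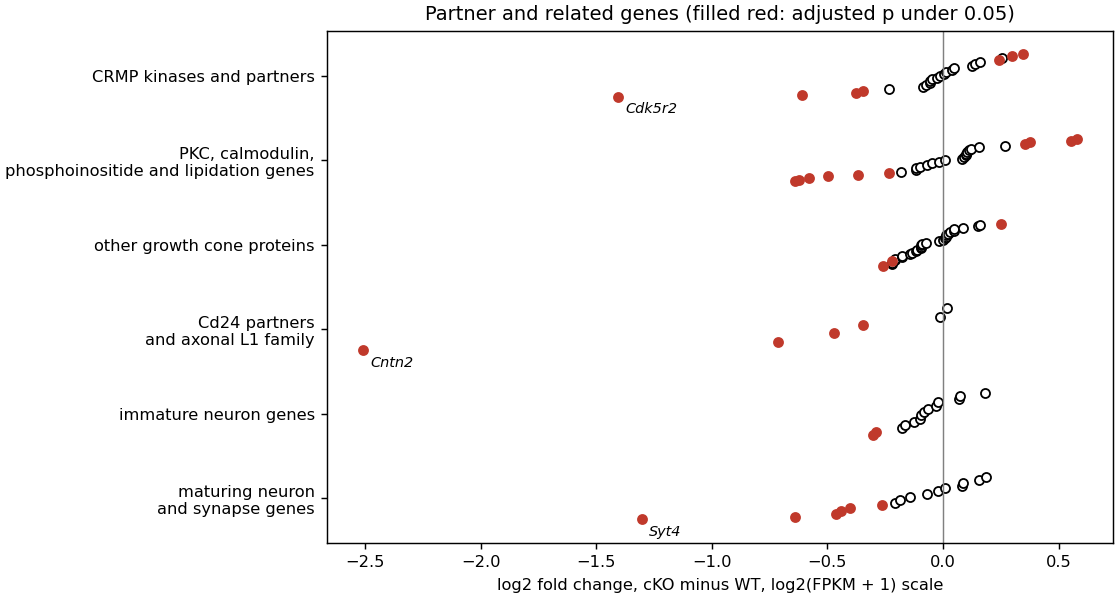
Log2 fold change, cKO minus WT, on the log2(FPKM + 1) scale (horizontal axis) for each gene of 6 lists, with filled red points for genes called at an adjusted p under 0.05 and open points for the others. Cntn2 at -2.51, Cdk5r2 at -1.41 and Syt4 at -1.30 lie farthest from 0.

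Genes of young and of maturing neurons were set beside the growth cone genes. Of 14 immature neuron genes, 2 fell, Nrep and Tubb2a, and 0 rose by limma or voom (1 was higher at an unadjusted p under 0.05), against 8.59% lower and 7.22% higher over all genes. Their median log2 change was -0.09. The number that rose was 1 with a pseudocount of 0.1 or 0.5, under quantile normalization and with the length and GC correction. Nrep, a small neuronal protein linked to regeneration, was at 562, 567 and 611 FPKM in cKO and 694, 712 and 718 FPKM in WT (limma adjusted p = 0.011). The tubulin Tubb2a was at 415 ± 37.4 FPKM in cKO and 512 ± 43.8 FPKM in WT (limma adjusted p = 0.0361). Nrep no longer passed when cKO 2 was left out (adjusted p = 0.0622) or under quantile normalization (adjusted p = 0.284). Of the fits that left out 1 library, Tubb2a passed only in that without cKO 3 (adjusted p up to 0.139, without cKO 2), and it missed the threshold under quantile normalization (adjusted p = 0.0811), plain moderation (0.0554) and sex as a term (0.0601). Doublecortin, Dcx, was at 181 ± 6.57 FPKM in cKO and 195 ± 19.0 FPKM in WT and did not pass (limma adjusted p = 0.407).

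Of 16 maturing neuron and synapse genes, 6 fell and 0 rose by limma or voom (1 was higher at an unadjusted p under 0.05, and 1 rose under quantile normalization). By limma, 8.59% were called lower and 7.22% higher over all genes. The median log2 change of the 16 was -0.17, against 0.0017 over all genes. Syt4, a synaptotagmin of secretory vesicles, was at 61.0, 69.0 and 68.2 FPKM in cKO and 153, 175 and 166 FPKM in WT (limma adjusted p = 5.24e-06). The membrane-fusion gene Snap25 fell to 29.0 ± 1.14 FPKM in cKO, against 40.3 ± 0.182 FPKM in WT (limma adjusted p = 0.000837). Of the complexins, regulators of vesicle fusion, Cplx1 was at 33.7 ± 1.35 FPKM in cKO and 46.1 ± 0.584 FPKM in WT (limma adjusted p = 0.0011). Cplx2 was at 58.8 ± 1.55 FPKM in cKO and 92.1 ± 2.497 FPKM in WT (limma adjusted p = 0.000101). The fall of Gap43 (-0.32) was in size below those of Snap25 (-0.46) and Syt4 (-1.30) and close to those of Tubb2a (-0.30) and Nrep (-0.29), and differences between genes were not tested.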

How the data were processed

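Neocortical RNA from 3 cKO and 3 WT samples was extracted with Trizol and sequenced after TruSeq library preparation, per the labels. The authors deposited FPKM values, as the file headers name them. The submitters' processing notes name bcl2fastq 1.8.4, STAR 2.5.4b, featureCounts 1.6.1, R 3.4.1, DESeq2 1.22.1 and build mm10. Their annotation, strand setting and any filter on low genes are not stated.

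The table held 15703 genes, and 139 blank lines were left out. Group and replicate came from the sample titles. Each group held libraries with and without Y-linked expression, so neither came from a single animal. Nothing states that all samples came from separate animals or litters, so p-values measure the spread between these samples, part of which may be technical. Limma 3.58.1 (R 4.3.3; trend and robust moderation, genotype as the only term) was run on log2(FPKM + 1), a scale that understates changes of low genes. Code was tested on simulated data.

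By gene ID, 15661 genes matched GENCODE M21, which gave coordinates, exon lengths and GC content. Approximate reads were FPKM times exon length times the library size at which values of low genes (up to 50 reads, exon length under 3000 bases) came out whole. At that size 94.7% to 95.9% of these values were whole to within 0.1 read, and 19.8% to 20.0% were at the median of the sizes tried. Counting errors cover counting only.

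The 10 genes and all lists were chosen with earlier results of these data known. Every one of the 10 is reported, with Tcf4. Each list contributes its called genes of lowest p, at most 4, less 1 that is not reported here. Rock1, Mical3, Sema3a, Cdk5, Cdk5r1, Plxna1, Plxna3, Plxna4, Prkca, Ppp3cb, L1cam and Dcx were named after their values were seen. Alternatives were other pseudocounts, filters, moderation, scaling, a replicate block, length and GC correction, voom on approximate reads, each library left out, and, added after seeing the data, sex of the animal, read from Y-linked genes, as a term. Python 3.11.15, pandas 2.3.3 and numpy 2.4.6 made the summaries.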

Additional observations from a re-analysis of the deposited data

How the results depend on the processing

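Of the 10 genes, 1 was called lower and 0 higher. Quantile normalization gave 0 lower and 1 higher (Cd24a), the replicate number as a block gave 3 lower (Gap43, Basp1, Crmp1) and 1 higher (Cd24a), and the length and GC correction gave 2 lower (Gap43, Crmp1) and 1 higher (Cd24a), with or without the block. The other pseudocounts, the filter, plain moderation, median-of-ratios scaling, voom and sex as a term kept 1 lower and 0 higher. Leaving out single libraries gave 0 to 2 lower and 0 higher. Over all genes, leaving out single libraries gave 544 to 1572 called higher and 830 to 1517 lower, against 1134 and 1349 with all 6. The fewest were called without WT 1, cKO 1 or cKO 2.

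Quantile normalization turned the log2 changes of Marcks (0.095), Marcksl1 (0.12) and Dpysl3 (0.13) positive, while the median of genes of at least 100 FPKM was -0.0042 in place of -0.14. The cause was not tested. Dpysl2 lay between -0.0325 and 0.0778 when single libraries were left out. Gap43, Basp1, Crmp1, Dpysl4, Dpysl5 and Cd24a kept their sign in all 17 alternatives. Over all genes, same-numbered samples did not deviate together (correlations -0.05, 0.10 and -0.05 for replicates 1, 2 and 3). With 3 samples per group this cannot tell whether they share a litter or batch, which the labels do not state. Among all pairs of a cKO and a WT library, the highest correlation was 0.21, for cKO 3 and WT 1, which both expressed Y-linked genes. The lowest was -0.20, for cKO 2 and WT 1. With the block, the SE was 0.0445 in place of 0.0688 for Gap43, and 0.0418 in place of 0.0746 for Cd24a. With the block, 1 immature neuron gene was called higher in place of 0, and 6 other growth cone proteins were called lower in place of 2.

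Counting error at these depths was small: Dpysl4, the lowest of the 10, had at least 1269 approximate reads per library. No alternative varied depth.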

Other observations

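Gap43 was the only one of the 10 genes called, and the genes whose 6 values ran closest to its own were looked up among 13070 other genes with a mean of at least 1 FPKM. The measure was the mean absolute difference of log2(FPKM + 1) values, each gene centred on its own mean over the 6 libraries. The nearest were Lhpp, a phosphatase gene (difference 0.0161), Prickle1, a planar polarity gene (0.0223), and ENSMUSG00000107277, which has no symbol in the table (0.0235). Lhpp was at 6.36 ± 0.444 FPKM in cKO and 8.10 ± 0.241 FPKM in WT, and Prickle1 at 10.6 ± 0.793 FPKM in cKO and 13.7 ± 0.622 FPKM in WT (SD, n = 3 each). ENSMUSG00000107277 was at 0.785 ± 0.0929 FPKM in cKO and 1.236 ± 0.144 FPKM in WT. Its mean fell by 36.5%, against 19.7% for Gap43, and the log2(FPKM + 1) scale understates changes at such low levels.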
